A study of Homo sapiens with 4 samples.

Results

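To examine how open the chromatin was around the transcription factor genes that define luminal breast epithelium, and whether this differed after treatment with the cytokine TWEAK, accessible sites were collected around 8 genes in SKBR3 cells. The genes were *ESR1*, *PGR*, *FOXA1*, *GATA3*, *SPDEF*, *XBP1*, *ELF3* and *ELF5*, taken by name from the GENCODE release 44 annotation. A site is a merged stretch in which peaks of at least 1 of the 4 deposited lists overlapped by at least 1 bp, and a site belonged to a gene when it lay within 100 kb of any annotated transcription start of that gene. This gave 341 of the 307691 sites on chromosomes 1 to 22 and X, and 8 of the 19962 protein-coding genes. ATAC-seq, in which the Tn5 transposase places sequencing adaptors into open DNA, was performed on 2 untreated libraries and on 2 libraries from cells given 10 ng/ml TWEAK for 48 h, with 8 h in reduced medium beforehand and fresh TWEAK after 24 h. The labels do not say whether untreated cells went through the same medium and time, so these cannot be told apart from TWEAK if they did not. The established line SKBR3 comes from a HER2-positive breast cancer and has an amplified *ERBB2* gene, and all libraries came from this 1 line, with no other allele or agent in the labels. The methods call cell line replicates biological and speak in general of cell line experiments repeated on different days, but no source ties these libraries to a culture or day, so the spread between libraries may be partly technical.

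Luminal cells line the ducts of the breast, and their identity rests on a small network of transcription factors. *ESR1* encodes the oestrogen receptor alpha and *PGR* the progesterone receptor, which is a classical target of the oestrogen receptor. *FOXA1* is a pioneer factor that opens chromatin for the oestrogen receptor, and *GATA3* is a zinc finger factor needed for luminal differentiation. *SPDEF*, *ELF3* and *ELF5* are epithelial members of the ETS family, of which *ELF5* drives the alveolar, milk-producing lineage. *XBP1* encodes a factor of the unfolded protein response and is abundant in luminal tumours. SKBR3 is known as a line without oestrogen and progesterone receptor protein. TWEAK, the product of *TNFSF12*, binds the receptor Fn14 and signals largely through NF-kB, and AP-1 factors are another common endpoint of cytokine signalling.

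The deposited value of a peak is unnamed. It was read as a -log10 p-value, which depends on depth, so 3 scales were used. The first is the rank percentile, the place of a peak when its list is ordered by this value, with 100 at the top. The second is the peak's pileup, the number of fragments stacked on it as recovered from this value, divided by the background pileup of its list. The third, chosen after the data were seen, is the rank percentile among the 131751 sites with a peak in all 4 libraries. The lists held between 195388 and 228734 peaks, with backgrounds between 1.85 and 3.59, and the smallest pileup of a listed peak was 10 and 7 in the untreated lists and 8 and 7 in the TWEAK lists. At each site, groups are called higher or lower only where both TWEAK libraries lay on the same side of both untreated libraries. All 3 scales are computed from the same deposited value, so agreement between them is largely built in and is no separate support. Of the 20812 sites in all 4 libraries that were higher by rank, 20272 were higher on all 3 scales. Of the 16121 that were lower by pileup over background, 16037 were lower on all 3. With 2 against 2 libraries the smallest p of an exact permutation test is 0.333, so no single site can pass 0.05 and differences at sites are given as values.

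Promoters of luminal epithelial genes were open in every library, which bears on the labelled cell type. The best sites within 1 kb of a start of *KRT8*, *KRT18*, *KRT19* and *EPCAM* lay between the 95.8th and 99.8th percentile, and that of *ERBB2* lay at or next to the top of each list. *CDH1*, whose gene SKBR3 is known to lack, had no site. Of the basal markers, *KRT5* lay between 72.6 and 84.4, *KRT14* between 54.5 and 66.9 and *TP63* between 17.9 and 44.9. *KRT5* (75.6 and 72.6 untreated, 84.3 and 84.4 with TWEAK) and the mesenchymal marker *VIM* (89.1 and 88.4 untreated, 92.2 and 92.0 with TWEAK) were higher in both TWEAK libraries on all 3 scales. The other mesenchymal markers were *ZEB1*, lower by rank (68.9 and 68.5 untreated, 66.9 and 54.5 with TWEAK) but overlapping on the other scales, and *CDH2*, with a peak in 1 library. Of the fibroblast markers, *COL1A1* was lower by rank (85.8 and 86.9 untreated, 84.9 and 84.4 with TWEAK) and overlapped by pileup over background, while *PDGFRA* (61.8 and 72.0 untreated, 74.1 and 68.4 with TWEAK) overlapped by rank and was higher by pileup over background. Of the immune and endothelial markers reported here, *CD3E* had no site, *PTPRC* had a peak in 1 library and *PECAM1* in 2, while *CDH5* had peaks in all 4 (93.3 and 90.2 untreated, 90.8 and 89.9 with TWEAK), which overlapped between the treatments on all 3 scales. An open promoter is not expression, and the part of other cells in the differences below was not tested.

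The DNA of 8 sites is shown because they differed between the lists and hold a match to a motif, for which they were chosen. Each is the central 201 bases around the best-ranked peak of a site, read from the hg38 reference and outside every annotated exon. Capitals mark a match to a consensus on either strand. The consensus letters were TGACTCA for AP-1, which appears as TGAGTCA when the match is on the other strand, TGTTTAC or TATTTAC for FOX (forkhead) factors, and the NF-kB consensus. The first 5 stretches were gained, with a peak in each TWEAK list but not in the untreated lists. The sixth ranked higher in both TWEAK libraries, and the last 2 ranked lower in both.
ESR1 gained site, chr6:151730241-151730441, plus strand: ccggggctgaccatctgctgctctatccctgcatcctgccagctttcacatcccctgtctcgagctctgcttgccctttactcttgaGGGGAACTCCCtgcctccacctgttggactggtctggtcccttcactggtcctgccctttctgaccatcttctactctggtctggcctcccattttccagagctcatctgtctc
ELF3 gained site, chr1:202037760-202037960, plus strand: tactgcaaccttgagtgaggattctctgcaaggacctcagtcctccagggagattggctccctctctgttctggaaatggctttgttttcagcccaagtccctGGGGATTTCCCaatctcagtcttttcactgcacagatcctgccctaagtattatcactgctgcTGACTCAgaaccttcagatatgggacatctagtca
PGR gained site, chr11:101091901-101092101, plus strand: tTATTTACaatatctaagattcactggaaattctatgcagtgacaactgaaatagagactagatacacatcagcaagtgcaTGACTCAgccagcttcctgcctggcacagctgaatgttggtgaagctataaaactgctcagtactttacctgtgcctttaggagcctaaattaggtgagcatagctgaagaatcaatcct
FOXA1 gained site, chr14:37580256-37580456, plus strand: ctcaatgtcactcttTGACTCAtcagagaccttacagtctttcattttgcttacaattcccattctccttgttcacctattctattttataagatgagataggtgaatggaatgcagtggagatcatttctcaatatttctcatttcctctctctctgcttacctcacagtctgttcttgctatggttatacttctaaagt
SPDEF gained site, chr6:34585248-34585448, plus strand: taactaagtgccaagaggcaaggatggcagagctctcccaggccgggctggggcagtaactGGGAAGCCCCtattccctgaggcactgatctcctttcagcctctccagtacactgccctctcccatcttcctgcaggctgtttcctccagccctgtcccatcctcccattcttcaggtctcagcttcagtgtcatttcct
SPDEF higher site, chr6:34460858-34461058, plus strand: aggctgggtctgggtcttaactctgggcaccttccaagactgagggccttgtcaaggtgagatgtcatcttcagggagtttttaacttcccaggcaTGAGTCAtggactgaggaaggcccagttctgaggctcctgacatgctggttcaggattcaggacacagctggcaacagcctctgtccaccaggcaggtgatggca
FOXA1 lower site, chr14:37616349-37616549, plus strand: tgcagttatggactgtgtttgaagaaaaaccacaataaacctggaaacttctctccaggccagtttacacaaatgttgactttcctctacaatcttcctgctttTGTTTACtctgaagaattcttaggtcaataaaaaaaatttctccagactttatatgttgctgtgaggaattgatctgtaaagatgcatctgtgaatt
ELF5 lower site, chr11:34529733-34529933, plus strand: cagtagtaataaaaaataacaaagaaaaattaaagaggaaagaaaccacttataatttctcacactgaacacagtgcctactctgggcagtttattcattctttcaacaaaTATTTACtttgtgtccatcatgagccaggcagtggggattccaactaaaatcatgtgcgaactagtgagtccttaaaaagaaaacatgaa

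The landscape around the 8 genes was mostly common to both treatments. Of the 341 sites, 175 (51.3%) had a peak in all 4 libraries, against 42.8% of all sites, and 69 had a peak in 1 library, against 29.2% of all sites. There were 21 gained sites, with a peak in both TWEAK libraries only (6.16%, where all sites had 3.6%), and 10 lost sites, with a peak in both untreated libraries only (2.93%, where all sites had 3.79%). Of these, 5 gained and 5 lost sites had a peak of the other treatment within 500 bp without overlap, which leaves 16 gained (4.69%) and 5 lost sites (1.47%), beside 2.61% and 2.5% of all sites. Without untreated replicate 1 there were 25 gained and 33 lost sites, and without untreated replicate 2 there were 30 and 32. The counts were 34 and 27 without TWEAK replicate 1 and 34 and 24 without TWEAK replicate 2. With a library left out, a peak in the remaining library of its group was enough, which by itself raises the number of that group's sites. These counts therefore cannot decide whether the larger number of gained sites is stable, and no share of all sites is given for them. The number of peaks near the genes was 257 and 271 in the untreated libraries and 262 and 252 in the TWEAK libraries. The means of 264 ± 9.90 and 257 ± 7.07 peaks (SD, n = 2) differed by -7 (exact permutation test, two-sided, p = 0.667), which is less than the SD of the untreated libraries.

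**Figure D1:**
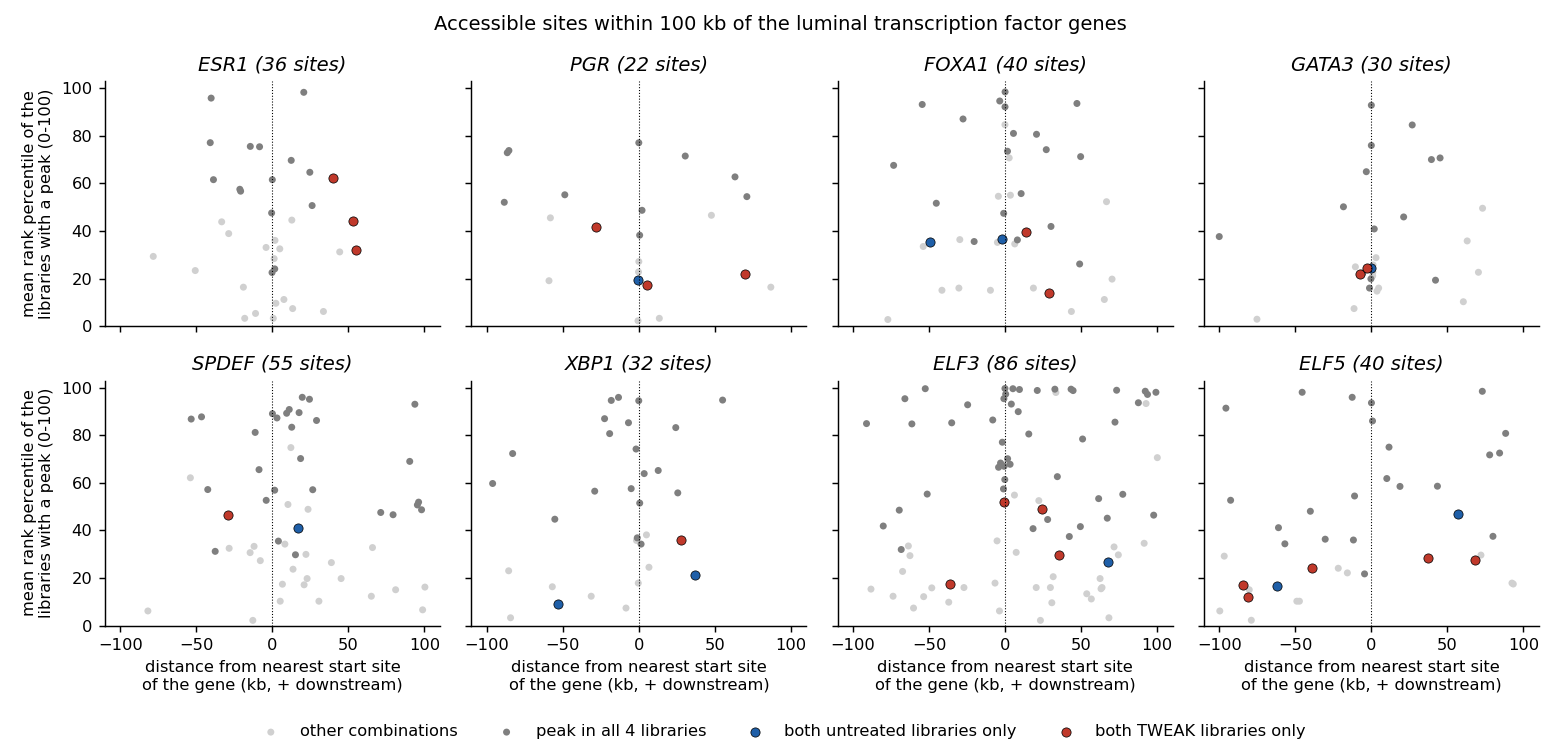
Each point is a site near 1 of the 8 genes, placed by its distance from the nearest start of that gene (horizontal, kb, positive downstream) and by the mean rank percentile of the libraries that had a peak (vertical). Red points had a peak in both TWEAK libraries only and blue points in both untreated libraries only. The highest red point, at 62.1, lies 39.8 kb downstream of an *ESR1* start.

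The gained sites were mostly weak peaks. The lower of a site's TWEAK percentiles ran from 2.52 to 62.1 with a median of 23.0, and their pileups ran from 7 to 33. Only 1 of the 21, in *ESR1*, lay above the 50th percentile in both TWEAK libraries (4.76%, beside 16.4% of all gained sites), and 0 of the 10 lost sites did so in both untreated libraries, beside 5.53% of all lost sites. The lost sites had a median lower percentile of 21.3, with 40.8 as the highest. By position, 12 of the gained sites were intergenic, 8 intronic and 1 at a promoter, while 4 of the lost sites were intergenic, 3 intronic and 3 at promoters. The gene with the nearest start was the member itself at 13 of the 21 gained and 4 of the 10 lost sites, so many lay closer to a neighbour. Every gene of the 8 had at least 1 gained site, and *ESR1* was the only one with no lost site. These counts per gene moved with the settings: with equal list lengths *GATA3* had 0 gained sites and *PGR*, *GATA3* and *ELF3* also had 0 lost sites, and *ESR1* had 4 lost sites without untreated replicate 1, 2 without untreated replicate 2 and 1 without TWEAK replicate 1. Counts per gene were small throughout, since a protein-coding gene had a median of 34 sites, 1 gained site and 1 lost site within the same distance.

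*ESR1*, the oestrogen receptor gene (ENSG00000091831.25, chr6:151656691-152129619, plus strand), had 36 sites, of which 27 were intronic, 15 were shared by all 4 libraries, 3 gained and 0 lost. At least 3 gained and no lost sites were found at 3.70% of protein-coding genes. The *ESR1* starts are spread out, so its window spanned 487 kb, against 200 kb (*SPDEF*) to 278 kb (*PGR*) for the other genes. Counts were not scaled by this length. The gained count was 1 within 50 kb, 2 with starts of protein-coding transcripts only, 7 either for values of at least 5 or with equal list lengths, and 5 or 6 when any 1 library was left out. The strongest gained site of all 8 genes was chr6:151730083-151730591, in an *ESR1* intron, where the sequence above carries an NF-kB match. Its peak had a pileup of 33 in TWEAK replicate 1 and 29 in TWEAK replicate 2, which are 12.5 and 15.7 times the list background, and its percentile was 62.1 in both. No untreated peak lay nearer than 13208 bp. The other gained sites were chr6:151743143-151743669, with percentiles of 40.6 and 47.4 and a FOX match, and chr6:151999123-151999626, with 32.5 and 31.2 and an AP-1 match. All 3 were intronic.

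The *ESR1* promoter was the weakest of the 8 and differed most between treatments. A promoter site here is the best-ranked site within 1 kb of a start. *ESR1* has 12 annotated start positions, of which 7 had a site within 1 kb, and its promoter site was chr6:151807312-151807868, over a group of downstream starts rather than the first. Untreated replicates 1 and 2 had percentiles of 64.0 and 43.8, and TWEAK replicates 1 and 2 had 67.5 and 70.7. The pileups were 41, 15, 40 and 39 in the same order, or 11.4, 6.71, 15.2 and 21.1 times the background. The TWEAK libraries were thus higher on all 3 scales, by 15.2 percentile points (53.9 ± 14.3 to 69.1 ± 2.25, SD, n = 2) and by 1.03 on the log2 scale of pileup over background. Untreated replicate 2 stood far below the other 3 libraries, and without it the difference was 5.09 points, whereas it was 25.3 without untreated replicate 1 and 25.1 with equal list lengths. Across the promoter sites of protein-coding genes in all 4 libraries, 8.36% were higher in both TWEAK libraries by rank, and the *ESR1* promoter ranked above only 9.44% of these promoters.

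Within the 15 shared *ESR1* sites, 6 ranked higher and 2 lower in both TWEAK libraries, where the shares over all shared sites were 15.8% higher and 35.4% lower. The 6 were higher on every scale. The best distal site, which means more than 1 kb from any start of the gene itself, was chr6:151900975-151901568 in an intron. It stood at 97.8 and 97.5 untreated and at 99.0 and 98.8 with TWEAK, with pileups of 311, 209, 327 and 245. A second promoter site, chr6:151803634-151804156, stood at 47.4 and 40.8 untreated and at 54.6 and 47.4 with TWEAK, so that its groups were nearly touching. The other 3 sites, all intronic, had differences of 7.57, 7.04 and 6.95 points. On the scale of pileup over background, 8 of the 15 were higher and 0 lower, beside 34.8% and 12.2% of all shared sites.

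*PGR*, the progesterone receptor gene (ENSG00000082175.16, chr11:101029624-101129813, minus strand), had the fewest sites, with 22 in a window of 278 kb, of which 10 were shared. Its promoter site, chr11:101129529-101130053, stood at 75.3 and 79.6 untreated and at 78.4 and 74.9 with TWEAK, so the treatments overlapped by rank. By pileup over background both TWEAK libraries were higher, at 23.9 and 24.9 against 17.8 and 23.7. The gene had 3 gained sites. The best of these, chr11:101091751-101092268, shown above with its FOX and AP-1 matches, had percentiles of 42.8 and 40.5 and lay in a *PGR* intron. The other 2 were weaker, at 16.4 and 27.3 for chr11:100981042-100981658, in an intron of *ARHGAP42* and with NF-kB and AP-1 matches, and at 16.4 and 17.9 for chr11:101121299-101121922, with a GATA match. Its 1 lost site, chr11:101127275-101127841, lay at a *PGR* start with percentiles of 10.3 and 28.8 and had a TWEAK peak 292 bp away.

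Of the 10 shared *PGR* sites, 1 ranked higher and 3 lower in both TWEAK libraries (all shared sites: 15.8% and 35.4%), and by pileup over background 6 were higher and 2 lower (34.8% and 12.2%). The higher one was also the best distal site, chr11:101214981-101215506, which lies 85.4 kb upstream of the nearest start and holds an AP-1 match. It stood at 69.4 and 70.7 untreated and at 79.1 and 76.0 with TWEAK. The largest difference in the other direction was at chr11:100987903-100988445 in *ARHGAP42*, with 72.6 and 74.3 untreated and 54.6 and 49.4 with TWEAK. Both sites had separate groups on all 3 scales.

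*FOXA1*, the pioneer factor gene (ENSG00000129514.8, chr14:37589552-37596059, minus strand), had one of the most open promoters of the set. Its site chr14:37595766-37596379 stood at 98.3 and 98.2 untreated and at 98.7 and 98.5 with TWEAK. The TWEAK libraries were higher on all 3 scales, but the difference was only 0.301 points (98.3 ± 0.0641 to 98.6 ± 0.131, SD, n = 2), or 0.22 on the log2 scale of pileup over background. Of the 19 shared *FOXA1* sites, 9 ranked lower in both TWEAK libraries and 2 higher, beside 35.4% and 15.8% of all shared sites. The counts by pileup over background were 6 lower and 4 higher, beside 12.2% and 34.8%. At chr14:37599332-37599854, the best distal site, 3.53 kb upstream, values were lower on every scale, at 96.3 and 95.7 untreated and 93.6 and 92.8 with TWEAK.

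Of the 5 largest downward differences at shared sites of all 8 genes, 2 lay near *FOXA1*, and both hold a FOX match. The site chr14:37616141-37616699, shown above, lies in an intron of *TTC6* 20.4 kb upstream of *FOXA1* and stood at 47.4 and 60.6 untreated against 16.4 and 17.9 with TWEAK. The pileups were 25 and 24 against 11 and 10. The site chr14:37563800-37564357, at the promoter of the neighbour *MIPOL1*, stood at 59.3 and 57.9 untreated against 32.5 and 17.9 with TWEAK. A difference in the other direction was seen 8.07 kb downstream, at chr14:37585834-37586540, with 33.1 and 22.8 untreated and 48.6 and 40.5 with TWEAK. The 2 gained sites had percentiles of 55.8 and 23.0 (chr14:37580106-37580610, with the AP-1 match shown above) and of 25.5 and 2.52 (chr14:37565362-37566023). The 2 lost sites were chr14:37597818-37598346, with 35.6 and 37.4, and chr14:37645169-37645673, with 33.1 and 37.4 and a FOX match.

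*GATA3* (ENSG00000107485.18, chr10:8045378-8075198, plus strand) had 30 sites, and at all of them *GATA3* was the gene with the nearest start. Its promoter site, chr10:8053284-8053795, stood at 94.5 and 92.4 untreated and at 94.0 and 90.5 with TWEAK, and the treatments overlapped on every scale. Both gained sites were upstream and weak. One, chr10:8042254-8042817, had percentiles of 25.5 and 23.0 and a FOX match, and the other, chr10:8037778-8038282, had 25.5 and 17.9 and a match to the GATA consensus. The lost site, chr10:8044901-8045411, lay at the first annotated start, with 19.8 and 28.8 and a TWEAK peak 415 bp away. Of the 14 shared sites 3 ranked higher and 5 lower in both TWEAK libraries (all shared sites: 15.8% and 35.4%), against 4 and 1 by pileup over background (34.8% and 12.2%). Only 1 of the 5 was lower on all 3 scales. That was chr10:8049360-8051094, in an intron, at 71.3 and 72.6 untreated and 57.0 and 58.6 with TWEAK. Its best distal site, chr10:8084713-8085727, changed sign with the scale, since it was lower by rank, at 84.9 in both untreated libraries against 84.5 and 83.9, and higher by pileup over background, at 32.7 and 37.4 against 29.3 and 31.8.

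*SPDEF*, an ETS factor of secretory epithelium (ENSG00000124664.11, chr6:34537802-34556333, minus strand), had 55 sites. Its promoter site, chr6:34556077-34556584, stood at 90.3 and 90.5 untreated and at 87.9 and 87.5 with TWEAK, a difference of -2.69 points (90.4 ± 0.125 to 87.7 ± 0.261, SD, n = 2). By pileup over background the groups overlapped, at 41.8 and 46.5 against 39.9 and 45.5. Of the 28 shared sites 14 ranked lower and 2 higher in both TWEAK libraries (all shared sites: 35.4% and 15.8%), but by pileup over background 4 were lower and 5 higher (12.2% and 34.8%). The 4 that were lower on all 3 scales were 2 intronic sites 17.5 and 11.0 kb downstream of the start, an upstream site at chr6:34564879-34565442 and a site at chr6:34609523-34610034 in an intron of another gene. The third of these stood at 74.9 and 75.3 untreated and at 54.6 and 57.3 with TWEAK.

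The largest upward difference at a shared site of any of the 8 genes was at the edge of the *SPDEF* window, 95.3 kb from its start and nearer to *PACSIN1*. This site, chr6:34460708-34461266, shown above with its AP-1 match, stood at 42.2 and 40.8 untreated and at 63.8 and 56.0 with TWEAK. Its pileups were 22 and 14 untreated and 35 and 24 with TWEAK. The gained *SPDEF* site, chr6:34585081-34585598, lies 29.0 kb upstream, had percentiles of 35.5 and 57.3 and holds the NF-kB match shown. The lost site, chr6:34539482-34540156, had untreated pileups of 20 and 15, holds an AP-1 match and had a TWEAK peak 421 bp away. Its best distal site, chr6:34536460-34536975, stood at 97.4 and 94.9 untreated and at 95.7 and 95.8 with TWEAK, and its groups overlapped.

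*ELF3*, an epithelial ETS factor gene (ENSG00000163435.16, chr1:202007945-202017183, plus strand), had 86 sites, the most of the 8 genes, and 18 of its 47 shared sites had a mean percentile above 90, as did 15.2% of all shared sites. Its promoter site, chr1:202010228-202010743, stood at 99.7 and 99.6 untreated and at 99.6 and 99.7 with TWEAK, above 97.8% of protein-coding promoters. The treatments overlapped there on every scale. Of the 4 gained sites, chr1:202007246-202007756 lay at the first start, with percentiles of 54.6 and 49.4, but had an untreated peak 107 bp away. The intergenic site chr1:202037610-202038146, 24.1 kb downstream, had 48.6 and 49.4, holds the NF-kB and AP-1 matches shown above and had its nearest untreated peak at 547 bp. The third, chr1:202048917-202049499, had 21.4 and 37.7. The lost site, chr1:202081289-202081795, lay near *GPR37L1* with 30.3 and 22.8 and had a TWEAK peak 56 bp away.

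Shared *ELF3* sites ranked lower in both TWEAK libraries at 21 of 47 and higher at 6 (all shared sites: 35.4% and 15.8%), and the counts by pileup over background were 9 lower and 14 higher (12.2% and 34.8%). The best distal site, chr1:201955166-201955673, was the promoter of the neighbour *TIMM17A* and stood at 99.5 in both untreated libraries and 99.6 in both TWEAK libraries. The largest difference, at chr1:201937791-201938840 in an intron of *LMOD1*, was downward, from 60.2 and 59.3 to 29.2 and 45.3.

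*ELF5*, the alveolar ETS factor gene (ENSG00000135374.11, chr11:34478791-34525193, minus strand), had 40 sites, of which 16 had *ELF5* as the nearest gene. No site lay within 1 kb of its first annotated start, where the nearest was 4172 bp away. The promoter site was at a start inside the gene, chr11:34513528-34514047, with 91.6 and 94.7 untreated and 93.5 and 94.7 with TWEAK, and the groups overlapped. *ELF5* had 5 gained sites, a number reached by 3.6% of protein-coding genes, and 2 lost sites. The gained count was 1 with equal list lengths, 2 within 50 kb and 3 either for values of at least 5 or without a peak of the other treatment within 500 bp. All 5 gained sites were weak, and the best 3 had percentiles of 25.5 and 31.2 (chr11:34474096-34474626), of 32.5 and 23.0 (chr11:34443216-34443726, near *CAT*, with an AP-1 match) and of 25.5 and 23.0 (chr11:34564323-34564896). The lost site chr11:34454602-34455103, at a start of *CAT*, was the strongest lost site of the 8 genes, with 53.0 and 40.8. The other, chr11:34586775-34587293, stood at 23.7 and 9.60 and had a TWEAK peak 116 bp away.

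Shared sites around *ELF5* differed widely in both directions, with 5 of 22 higher and 5 lower by rank (all shared sites: 15.8% and 35.4%), and 11 higher and 3 lower by pileup over background (34.8% and 12.2%). The largest downward difference of all 8 genes was at chr11:34529365-34530091, 4.54 kb upstream of the first start, at 35.6 and 46.5 untreated and at 2.25 and 2.52 with TWEAK. Its TWEAK pileups of 8 and 7 were the least a listed peak could have, against 19 and 16 untreated, and it holds the FOX match shown above. A site 11.9 kb upstream, chr11:34536699-34537403, stood at 42.2 and 53.0 untreated and at 21.4 and 27.3 with TWEAK, but its groups overlapped by pileup over background. Upward differences were found at chr11:34501421-34501966 in an intron, from 55.3 and 51.0 to 68.2 and 72.7, and at chr11:34555222-34555990, from 40.2 and 16.0 to 48.6 and 40.5, both on all 3 scales. Outside the promoter, the best site was the *CAT* promoter, chr11:34438618-34439129, at 98.2 and 98.6 untreated and 98.7 and 98.3 with TWEAK.

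*XBP1*, the unfolded protein response factor gene (ENSG00000100219.17, chr22:28794555-28800597, minus strand), had 32 sites, 20 of them shared. Its promoter site, chr22:28800352-28800866, stood at 94.6 and 95.7 untreated and at 94.4 and 93.3 with TWEAK, lower by 1.29 points on average (95.1 ± 0.722 to 93.9 ± 0.839, SD, n = 2). The difference was -0.697 without TWEAK replicate 2 and -0.780 without untreated replicate 2. By pileup over background its groups overlapped, at 59.4 and 74.3 against 64.9 and 66.6. Of the shared sites, 13 ranked lower and 1 higher in both TWEAK libraries, beside 35.4% and 15.8% of all shared sites, which lean the same way. By pileup over background 6 were lower and 4 higher, beside 12.2% and 34.8%. The 6 sites lower on all 3 scales were led by chr22:28771123-28771667, near *CCDC117*, at 67.8 and 63.0 untreated and 51.8 and 40.5 with TWEAK, and by chr22:28805336-28805844, 4.99 kb upstream of *XBP1*, at 64.0 and 69.3 untreated and 59.2 and 37.7 with TWEAK. The 1 higher site, chr22:28829322-28829836, went from 45.8 and 57.9 to 60.2 and 62.1. The best distal site, chr22:28813677-28814187, stood at 96.2 and 96.3 untreated and at 96.5 and 94.6 with TWEAK. *XBP1* had 1 gained site (chr22:28768983-28769501, with 40.6 and 31.2) and 2 lost sites (chr22:28759690-28760218, with 19.8 and 22.8 and a FOX match, and chr22:28853196-28853717, with 15.1 and 3.28).

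**Figure D2:**
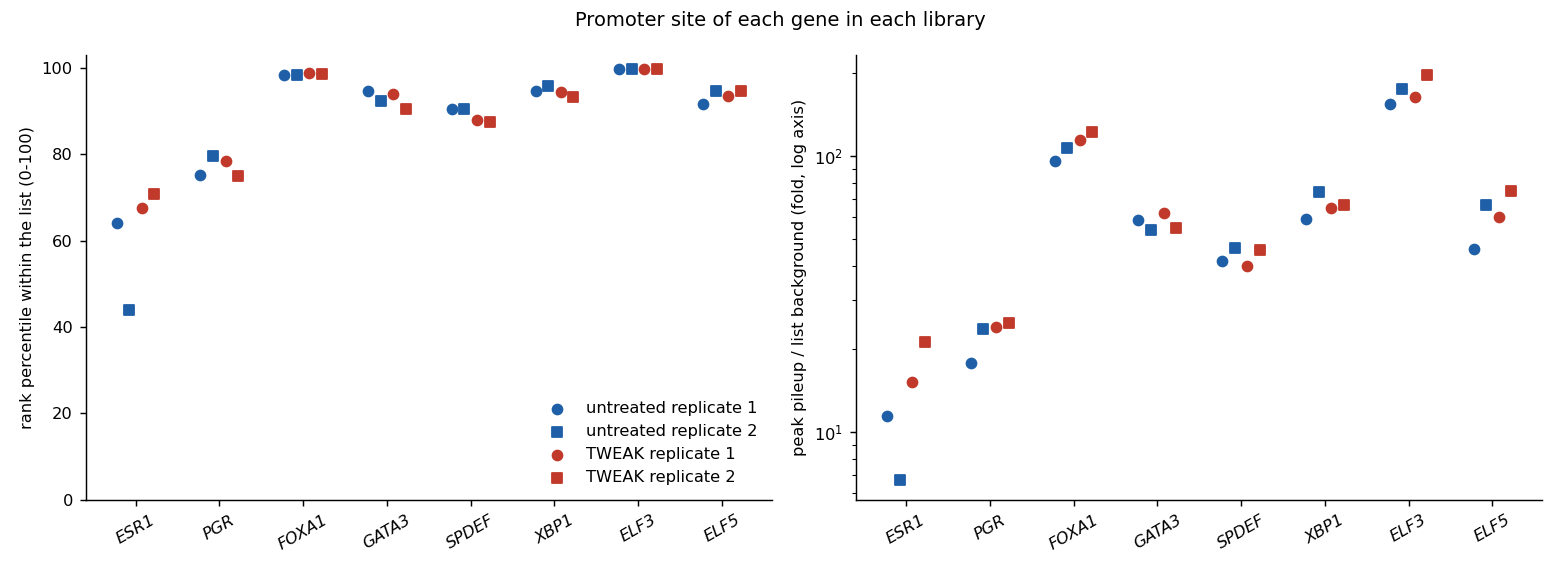
The promoter site of each gene in each of the 4 libraries, as rank percentile within the list (left, 0 to 100) and as pileup divided by the list background (right, log axis). Blue marks untreated and red TWEAK libraries, and circles and squares mark replicates 1 and 2. *ESR1* is the lowest and most spread, from 43.8 to 70.7, while *ELF3* and *FOXA1* lie at the top.

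In order of the mean percentile over the 4 libraries, the promoter sites ran from *ELF3* and *FOXA1* through *XBP1*, *ELF5*, *GATA3*, *SPDEF* and *PGR* to *ESR1*. *XBP1*, *ELF5* and *GATA3* overlapped one another in range, and *SPDEF* met the lower end of *GATA3* at 90.5, whereas *PGR* at 74.9 to 79.6 and *ESR1* at 43.8 to 70.7 lay apart from the rest and from each other. All 8 genes had a promoter site in all 4 libraries, as 75.8% of protein-coding genes did. Promoter sites rank high in general, with a median mean percentile of 91.6 over protein-coding genes. Beside these promoters, *ELF3* ranked above 97.8%, *FOXA1* above 88.7%, *XBP1* above 63.4% and *ELF5* above 59.0%. The shares were 55.3% for *GATA3*, 41.4% for *SPDEF*, 20.2% for *PGR* and 9.44% for *ESR1*. By rank, 2 promoters were higher (*ESR1*, *FOXA1*; all promoters: 8.36%) and 2 lower (*SPDEF*, *XBP1*; all promoters: 35.7%) in both TWEAK libraries. By rank among shared sites the same genes were called, against 13.8% and 28.3% of promoters. By pileup over background, *ESR1*, *FOXA1* and *PGR* were higher and none was lower, against 25.1% and 7.27%.

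Over all 175 shared sites, 26 (14.9%) ranked higher and 72 (41.1%) lower in both TWEAK libraries, close to the 15.8% and 35.4% of all shared sites. The split turned with the scale. By rank among shared sites 35 were higher and 60 lower, against 23.3% and 28.0% of all shared sites, and by pileup over background 56 were higher and 31 lower, against 34.8% and 12.2%. The median over all shared sites itself moved between scales, being -1.75 percentile points by rank and 0.14 on the log2 scale of pileup over background, and the members' medians were -2.76 points and 0.07. The members' medians thus lay below those of all shared sites, a difference that was not tested. On all 3 scales together, 25 of the 175 sites (14.3%) were higher and 31 (17.7%) lower, against 15.4% and 12.2% of all shared sites. The median percentile of the shared sites was 70.4 and 73.7 in the untreated libraries and 68.2 and 66.8 in the TWEAK libraries. These do not overlap (difference -4.57; two-sided exact permutation p = 0.333, which is the smallest possible), whereas the medians over all shared sites of the series, 66.6 and 69.3 untreated and 68.2 and 64.1 with TWEAK, do. The difference was smaller with equal list lengths (-2.06) and for values of at least 5 (-2.15), and larger without untreated replicate 1 (-9.04) or TWEAK replicate 1 (-8.04).

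**Figure D3:**
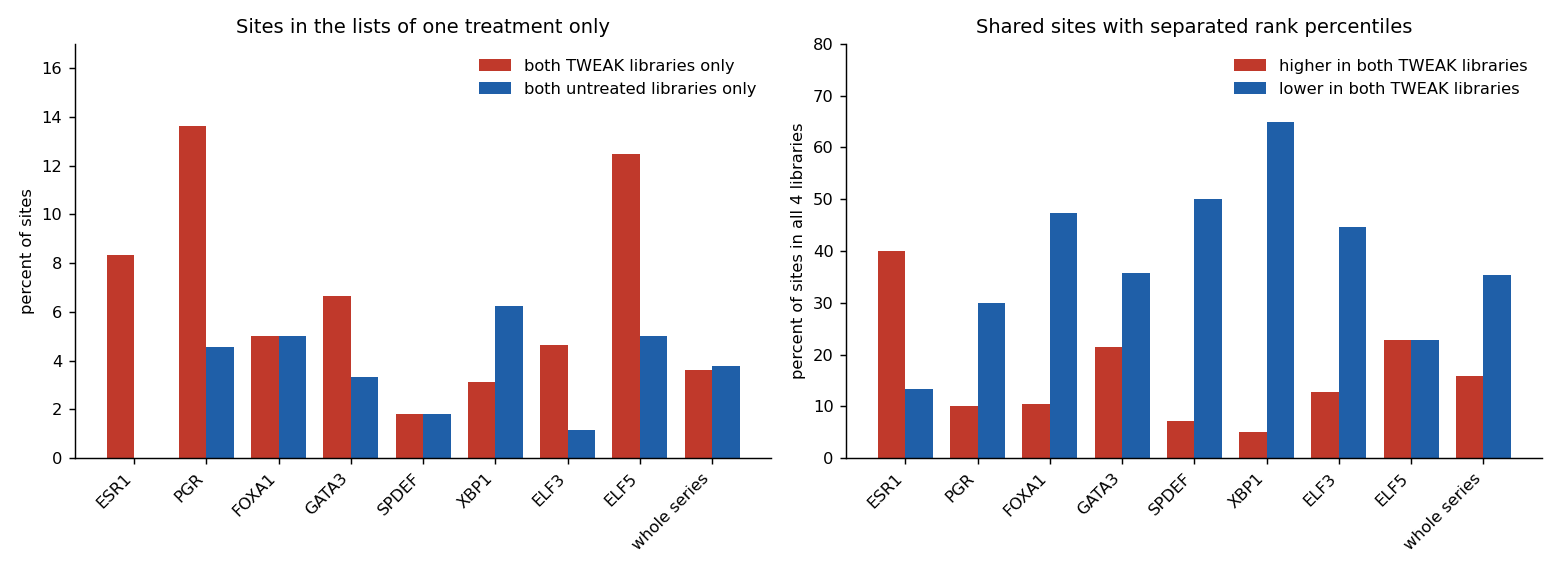
Left, the percent of a gene's sites with a peak in both TWEAK libraries only (red) or both untreated libraries only (blue), and right, the percent of a gene's shared sites ranked higher (red) or lower (blue) in both TWEAK libraries, with all sites of the series as the last pair of bars. The bars rest on between 22 and 86 sites per gene on the left and between 10 and 47 on the right. *ESR1* shows more higher (40%) than lower (13.3%) shared sites, and *XBP1* the reverse (5% and 65%).

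**Figure D4:**
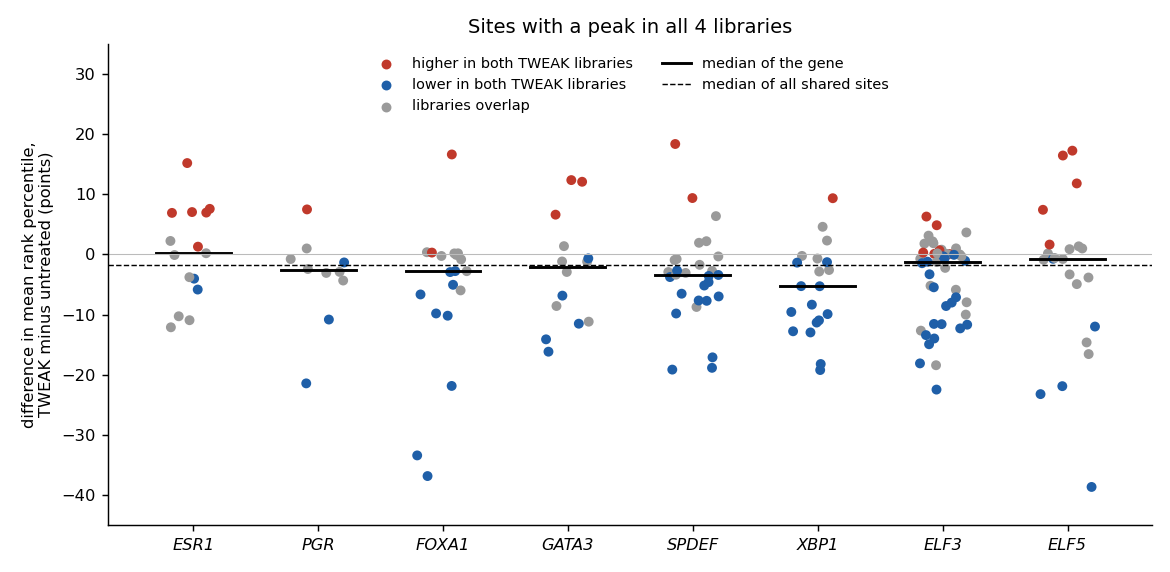
Each point is a shared site, and the vertical axis gives its mean rank percentile with TWEAK minus that without, in percentile points. Red and blue points have separate groups, grey points overlap, black bars are gene medians and the dashed line is the median of all shared sites. The medians run from -5.29 (*XBP1*) to 0.193 (*ESR1*), and single sites from -38.7 to 18.4.

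Motif matches were counted on both strands up to 100 bp from the middle of the top-ranked peak at each site, in windows of the same length at all 307691 sites, and a match is a description of the letters only. NF-kB matches were present at 4 of the 21 gained sites (in *ESR1*, *PGR*, *SPDEF* and *ELF3*) and at 0 of the 10 lost sites. Over all sites the shares were 6.21% in total, 20.1% of gained and 4.28% of lost sites. AP-1 matches were present at 7 gained sites and 1 lost site, where all sites had 9.01%, all gained sites 16.6% and all lost sites 4.90%. Among shared sites, AP-1 matches were present at 7 of the 26 higher and 4 of the 72 lower sites, beside 22.1% and 5.99% for all higher and lower sites.

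Consensus letters of the luminal and other epithelial factors were also counted. FOX matches were present at 45 of the 341 sites (13.2%, all sites 9.65%). By gene these were 9 of 40 sites near *FOXA1*, 7 of 36 near *ESR1*, 6 of 30 near *GATA3* and 5 of 22 near *PGR*. There were 6 of 40 near *ELF5*, 3 of 32 near *XBP1*, 4 of 55 near *SPDEF* and 5 of 86 near *ELF3*. FOX matches were also at 13 of the 72 lower but 1 of the 26 higher sites, beside 14.5% and 9.40% for all lower and higher sites. GATA matches (AGATAA) were present at 31 sites (9.09%, all sites 7.96%), of which 2 were near *GATA3*. TFAP2 matches (GCCNNNGGC) were present at 45 sites (13.2%, all sites 12.1%). Few sites had the other motifs, with 4 for ETS factors (CCGGAAG, all sites 1.82%), 5 for XBP1 (TGACGTGG, 0.320%) and 5 for GRHL factors (AACCGGTT or AACTGGTT, 1.29%). The full palindromic oestrogen response element (0.0192% of all sites) matched 1 site near *ELF3*, and the progesterone response element (0.341%) matched 1 site near *SPDEF*. Matches of different motifs may overlap, and at most 1 match per motif and site was counted.

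Promoters of 19 further luminal genes were read the same way, and 18 had a promoter site in all 4 libraries. By rank 3 were higher in both TWEAK libraries and 9 lower, beside 8.36% and 35.7% of all promoters, and on all 3 scales 3 were higher and 5 lower, beside 7.54% and 6.87%. Higher on all scales were *TFF1*, an oestrogen-responsive secreted peptide gene (27.2 and 37.4 untreated, 46.8 and 49.4 with TWEAK), *AGR2*, encoding a disulfide isomerase of secretory cells (90.03 and 89.8, then 93.3 and 93.8), and *KRT8*, a luminal keratin gene (98.0 and 97.7, then 98.2 and 98.2). Lower on all scales was the melanophilin gene *MLPH*, at 91.7 and 92.3 untreated and 81.7 and 77.4 with TWEAK. The trefoil peptide gene *TFF3* stood at 92.9 and 90.6 untreated and at 83.9 and 79.1 with TWEAK. The carbonic anhydrase gene *CA12* stood at 84.2 and 83.6 untreated and at 77.3 and 74.4 with TWEAK. *KRT18* (98.0 and 97.4, then 96.3 and 95.8) and *TBX3* (99.5 and 99.3, then 99.2 and 98.9) differed by less. *GREB1*, *MYB*, *PRLR* and *STC2* were lower by rank, with differences of -8.70, -2.07, -3.56 and -1.53 points, but overlapped by pileup over background. Within 100 kb of their starts, 7 of the 19 genes had more gained than lost sites, 6 had more lost and 6 had equal numbers, counted without the alternative settings, beside 31.0% of protein-coding genes with more gained and 38.5% with more lost sites. The windows of *KRT8* and *KRT18*, which both had more lost sites, overlap and share sites, as do those of *TFF1* and *TFF3*, so the 19 are not all separate loci.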

How the data were processed

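ATAC-seq peak lists of SKBR3 cells were used, 1 for each of 2 untreated and 2 TWEAK libraries, with groups taken from the sample titles. According to the methods and the submitters' processing notes, the authors trimmed reads with Trimmomatic, mapped them to hg38 with Bowtie2, took out mitochondrial reads (Bamtools) and duplicates (Picard), and used MACS2 to call peaks. Versions, caller settings and any shift of reads for Tn5 are not given in the sources used here. Every deposited peak was 501 bp wide, and replicates were not pooled. The deposited value per peak is unnamed and was read as the -log10 p-value that the authors' MACS2 run gave, uncorrected for multiple testing. For every list, 100% of values matched the Poisson tail of a whole-number pileup against 1 background per list. Pileups recovered in this way gave the ratio to background. Peak calling by a p-value favours deeper libraries, so absence from a list is not absence of signal.

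The reference held all 55 of the 55 sequence names, and 0 peaks on chromosomes 1 to 22 and X ran past the end. Peaks were merged at an overlap of 1 bp. Sites within 1 kb of any start were promoter sites, and the rest were exonic, intronic or intergenic by their centre. The named sites of each gene were its promoter site, its best-ranked distal site in all 4 libraries and up to 3 gained and 3 lost sites with the highest lower percentile, and over all genes the 5 largest differences in each direction among sites whose groups did not overlap. Further sites named were picked after their values were seen. Sequences were read from hg38. The members, gene lists and motifs were chosen with earlier results of these data known, and 2 genes of these lists were left out and are not analysed here. Differences per library were tested by exact permutation, two-sided, in Python 3.11.15 with scipy 1.17.1, numpy 2.4.6 and pandas 2.3.3, and the scripts were tested on simulated data. DiffBind, used in the study, needs reads and was not run. The window, start sites, peak filter, list length, overlap, scale and set of libraries were varied.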

Additional observations from a re-analysis of the deposited data

How the results depend on the processing

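The count of lost sites was the least stable, at 6 within 50 kb, 16 when peaks had to overlap over most of their width to be merged and 5 without a peak of the other treatment within 500 bp, where 10 were reported. The share of sites in all 4 libraries was 57.7% for values of at least 5, 57.9% with equal list lengths of 150000 peaks and 43.2% under the stricter overlap. Scored by pileup over background, 56 shared sites were higher and 31 lower, and the difference in median turned to 0.072 on the log2 scale (exact permutation p = 0.667). With equal list lengths the promoter difference was 0.559 points for *FOXA1* and -2.95 for *SPDEF*, which kept their direction, and 25.1 for *ESR1*. Promoters whose groups overlapped had no stable sign, with *PGR* at 0.68 and *ELF3* at 0.00883 under equal list lengths, *GATA3* at 0.524 without TWEAK replicate 2 and *ELF5* at -0.564 without untreated replicate 1. The difference in median percentile was -2.06 with equal list lengths and -2.15 for values of at least 5. Leaving out each library in turn, where fewer libraries must agree, gave 25 to 34 gained sites, 24 to 33 lost sites (more lost than gained without either untreated library, 25 against 33 and 30 against 32), a share in all libraries of 56.0% to 58.3%, 39 to 51 higher and 92 to 116 lower shared sites, and a difference in the median percentile of -9.04 to -4.74. The difference in peak number ran from -14 to 0, and was 0 without untreated replicate 2. The *ESR1* promoter difference ran from 5.09 points without untreated replicate 2 to 25.3 without untreated replicate 1, a setting added after the data were seen. Same-numbered libraries did not deviate together (correlation -0.00606 over 131751 shared sites), so the numbers were not used as pairs. With a replicate block, 36 shared sites were higher and 81 lower within both pairs, the peak difference of -7 had p = 1 and the median difference of -4.57 had p = 0.5, the smallest possible with 2 exact sign flips. Depth limits the weak sites, since a pileup of 7 to 10 decided whether a peak was listed.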

Other observations

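The outer edge of the windows is an arbitrary line. The farthest site inside lay 76.7 kb (*FOXA1*) to 99996 bp (*SPDEF*) from a start, and the next site outside lay between 100.2 kb (*SPDEF*) and 109.0 kb (*PGR*). Across the genome, 31.0% of protein-coding genes had more gained than lost sites within 100 kb and 38.5% had more lost than gained sites, while 5 of the 8 luminal factor genes (*ESR1*, *PGR*, *GATA3*, *ELF3* and *ELF5*) had more gained than lost sites, 2 had equal numbers and *XBP1* had more lost sites. This tally was not stable: with equal list lengths 3 genes had more gained and 3 more lost sites. It was 3 and 5 without untreated replicate 1 and 4 and 3 without untreated replicate 2. Without TWEAK replicate 1 it was 5 and 2, and without TWEAK replicate 2 it was 4 and 4. Leaving out a library by itself raises the number of sites called for its group, so these 4 settings cannot decide whether the tally holds.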
